A study of Mus musculus with 4 samples.

Results

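The subject is 8 protease inhibitor genes measured by spatial transcriptomics in the mouse olfactory bulb: Serpina3n, Timp1, Timp2, Timp3, A2m, Cst3, Serpine2 and Wfdc17. They were taken by symbol from the 32285 genes of the deposited count matrix, and all 8 were found there. They were chosen with their levels in these libraries and across these spots already known, so their values are a description and carry no test. The study laid coronal sections of fresh-frozen olfactory bulb, 10 µm thick, on Visium capture areas, where each barcoded spot captures polyadenylated RNA from a small area of tissue, which may cover more than 1 cell or only parts of cells. One group is a control mouse, for which the labels give no genotype beyond that word. The other is a mutant mouse with transgenic soluble VEGFR1, a decoy receptor that binds VEGF, under the tetracycline-regulated camk2a-tTa driver, which the labels call specific to brain, with VEGF blocked at E13.5, and 28% of its bulb is described as degenerated. Both mice were sacrificed at 5 months. The control mouse gave 2 sections on 1 capture area and 1 section on another, and the mutant mouse gave 2 sections on each of 2 areas, so each group is 1 animal.

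Spots carry a library number from 1 to 4 that matches no sample label. The libraries are therefore reported by number, no library stands for either mouse, and control and mutant were not compared. After spots under 500 unique molecular identifiers (UMIs, which count captured molecules) were set aside, 4616 of 4713 spots remained, with 715 to 1662 spots and 5223890 to 13304973 UMIs in a library and medians of 7186 to 9829 UMIs in a spot. Levels are UMIs of a gene per 1000000 UMIs of the library (CPM) with exact Poisson 95% intervals, ratios of 2 levels have exact conditional binomial 95% intervals, and both cover counting error only. A sum of 3 UMIs, the upper limit that a count of 0 allows, equals 0.225, 0.574, 0.239 and 0.315 CPM in libraries 1 to 4. All 5 granule cell, 6 mitral and tufted cell and 5 olfactory sensory neuron genes of the marker lists were detected in every library. Pairs of libraries shared between 62 and 651 barcode strings, the same spot barcodes being used on different capture areas, and each pair differed by more than sampling noise (chi-square over its degrees of freedom was 2.71 or more). Capture areas of 1 mouse would be repeats of 1 animal, so libraries were not averaged and no p-value was computed.

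Extracellular proteases cut matrix, clotting factors and complement, and cells that release them also release inhibitors that set where and how long they act. Serpins are suicide substrates that trap serine proteases, TIMPs fill the active site of matrix metalloproteases, alpha-2-macroglobulin cages proteases of every class, cystatins block lysosomal cysteine proteases, and proteins with a whey acidic protein (WAP) domain mostly bind serine proteases. In injured brain, astrocytes and other glia are known to raise Serpina3n and Timp1, while cystatin C, encoded by Cst3, is abundant in resting glia.

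The start-site windows of the genes are shown first, because 4 of the 8 genes were far apart between libraries and the other 4 were not, and these sequences are where each gene begins. Windows of 300 bases, from 250 before to 50 after the annotated start, were found in RefSeq (GRCm38.p6) for 7 of the 8 genes. None was found for A2m. They are written 5′ to 3′ on the strand of the gene, with every CG dinucleotide in capitals. The Serpina3n window is chr12:104406458-104406757 (plus strand), that of Timp1 is chrX:20869916-20870215 (plus), that of Wfdc17 is chr11:83703806-83704105 (plus) and that of Serpine2 is chr1:79858616-79858915 (minus). Serpine2 is printed as the window with the most CG dinucleotides.
Serpina3n: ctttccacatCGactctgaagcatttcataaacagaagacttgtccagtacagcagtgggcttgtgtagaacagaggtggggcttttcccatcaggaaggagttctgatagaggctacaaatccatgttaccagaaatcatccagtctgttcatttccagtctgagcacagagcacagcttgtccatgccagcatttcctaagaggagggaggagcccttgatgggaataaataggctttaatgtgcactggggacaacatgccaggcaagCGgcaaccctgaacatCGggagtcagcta
Timp1: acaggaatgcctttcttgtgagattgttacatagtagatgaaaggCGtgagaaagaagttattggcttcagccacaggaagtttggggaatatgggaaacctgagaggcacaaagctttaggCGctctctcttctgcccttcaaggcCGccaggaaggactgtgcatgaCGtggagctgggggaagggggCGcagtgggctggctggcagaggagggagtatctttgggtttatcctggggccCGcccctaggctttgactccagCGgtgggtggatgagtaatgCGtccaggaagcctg
Wfdc17: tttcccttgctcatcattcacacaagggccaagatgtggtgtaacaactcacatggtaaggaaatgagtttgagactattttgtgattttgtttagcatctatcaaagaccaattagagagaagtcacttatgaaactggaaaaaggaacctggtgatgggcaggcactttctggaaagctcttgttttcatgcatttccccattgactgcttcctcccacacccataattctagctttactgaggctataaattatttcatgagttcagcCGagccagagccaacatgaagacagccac
Serpine2: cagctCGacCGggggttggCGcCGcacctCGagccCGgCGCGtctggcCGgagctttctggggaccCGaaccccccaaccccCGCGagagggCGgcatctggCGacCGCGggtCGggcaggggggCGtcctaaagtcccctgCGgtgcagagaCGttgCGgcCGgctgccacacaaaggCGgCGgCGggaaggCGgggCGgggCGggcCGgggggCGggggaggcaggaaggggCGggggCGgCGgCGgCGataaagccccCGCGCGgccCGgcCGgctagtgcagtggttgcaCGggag

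The windows of Serpina3n, Timp1 and Wfdc17 held 3, 8 and 1 CG dinucleotides, and those of Cst3, Timp3, Timp2 and Serpine2 held 13, 24, 25 and 41. Over all 32851 windows the median was 7, and 94.6% held at least 1. Of the genes with a wide range between libraries, the 3 with a window held 8 or fewer, and A2m had no window. The other 4 genes held 13 or more, a pattern seen after the values were known. Both strands were also searched for 4 motifs. The STAT factor motif TTCNNNGAA, found in 8.30% of all windows, had no match in the 7 windows. The AP-1 motif TGANTCA, found in 7.81% of them, had none, and neither had the C/EBP motif TTGCNNAA, found in 10.8%. The TATA box letters TATAAA, found in 13.6%, matched in the window of Wfdc17 alone, at position -3 from the annotated start. A window of this length covers a small part of the control regions of a gene, and a match or its lack is a description of these letters.

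Serpina3n, Timp1, A2m and Wfdc17 were low in libraries 1 and 2 and far higher in libraries 3 and 4, whereas Timp2, Timp3, Cst3 and Serpine2 differed by 1.54-fold or less. Thus 4 of the 8 genes were over 2-fold apart between the highest and the lowest library. Of the 9840 genes that reached 500 UMIs over the 4 libraries and 3 UMIs in every one of them, 7.86% passed the same threshold; the genes were chosen from these levels, so nothing is read from the count. The median ratio was 10.4 for the 8 genes, a value between the 2 sets that none of them had, and 1.24 for the genes tested. Nothing is read from these medians either, for the same reason.

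**Figure D1:**
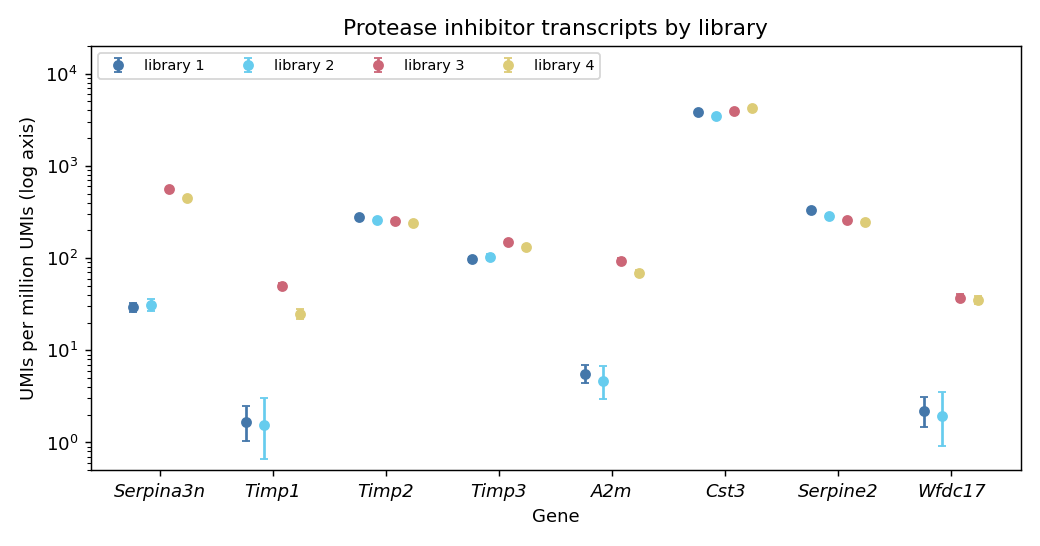
Level of each gene in CPM on a log axis, by library, with exact Poisson 95% intervals as bars. Serpina3n, Timp1, A2m and Wfdc17 split into a low pair of libraries (1 and 2) and a high pair (3 and 4), and the 4 points of the other genes lie close together.

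Serpina3n (ENSMUSG00000021091) encodes a secreted serpin that inhibits granzyme B and leukocyte elastase and is a common marker of reactive astrocytes. It was measured at 29.2 CPM (26.3 to 32.2) in library 1, 31.2 in library 2, 564 in library 3 and 449 in library 4. Library 3 was 19.3-fold above library 1 (17.5 to 21.5) and 1.26-fold above library 4 (1.21 to 1.31), and libraries 1 and 2 did not differ beyond counting error (ratio 0.935, 0.776 to 1.13). Serpine2 (ENSMUSG00000026249) encodes protease nexin-1, a serpin of glia and neurons that inhibits thrombin, urokinase and tissue plasminogen activator. Its levels ran the other way, at 332, 283, 259 and 247 CPM in libraries 1 to 4. Library 1 exceeded library 4 by 1.34-fold (1.28 to 1.41), while libraries 3 and 4 did not differ beyond counting error (1.05, 0.993 to 1.11). Libraries 3 and 4 were thus the high pair for Serpina3n and the low pair for Serpine2.

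The 3 TIMPs differed in range from each other. Timp1 (ENSMUSG00000001131), the inducible member that inhibits most soluble matrix metalloproteases, had 22, 8, 620 and 238 UMIs in libraries 1 to 4, or 1.65, 1.53, 49.5 and 24.96 CPM. Library 3 was 32.3-fold above library 2, with a wide interval of 16.3 to 75.2 that the 8 UMIs of library 2 set. It was also the gene of the 8 that libraries 3 and 4 separated most, at 1.98-fold (1.70 to 2.31). Timp3 (ENSMUSG00000020044) binds the matrix and inhibits ADAM proteases as well as matrix metalloproteases. It was measured at 96.9, 103, 149 and 130 CPM, with library 3 being 1.54-fold above library 1 (1.43 to 1.65). Timp2 (ENSMUSG00000017466), which helps to activate Mmp2 at the cell surface besides inhibiting it, stood at 276, 261, 255 and 239 CPM, a range of 1.16-fold (1.10 to 1.22).

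A2m (ENSMUSG00000030111) encodes alpha-2-macroglobulin. Its 74, 24, 1174 and 659 UMIs gave 5.56, 4.59, 93.7 and 69.1 CPM in libraries 1 to 4, and library 3 was 20.4-fold above library 2 (13.6 to 31.95). Wfdc17 (ENSMUSG00000069792) encodes a small WAP-domain protein of activated macrophages. It had 29, 10, 466 and 336 UMIs, or 2.18, 1.91, 37.2 and 35.2 CPM, a ratio of 19.4 (10.5 to 40.8). For both genes libraries 1 and 2 were the low pair and did not differ beyond counting error. Libraries 3 and 4 did not differ for Wfdc17 (1.05, 0.915 to 1.22) and differed by 1.36-fold for A2m (1.23 to 1.49). Cst3 (ENSMUSG00000027447) was measured at 3829, 3487, 3926 and 4197 CPM, and library 4 was 1.204-fold above library 2 (1.18 to 1.22). With 158387 of the UMIs of the 4 libraries, it was the member with the most captured molecules.

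When all 9840 genes were ordered by this ratio, Timp1, A2m, Wfdc17 and Serpina3n took places 9, 18, 21 and 22. Without library 3 the ratio of Timp1 was 16.3, and with regions weighted alike it was 61.3. Without mitochondrial, ribosomal protein and haemoglobin genes in the total, the same 4 genes and no other were over 2-fold.

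Some marker lists of cell types and states moved with these levels and others did not, and their part in them was not tested. The 12 reactive glia genes (none of the 8 among them) summed to 235, 215, 1750 and 1453 CPM in libraries 1 to 4, and all 12 were detected in each library. The 11 phagocyte genes summed to 272, 262, 1332 and 1098 CPM, with 1, 3, 0 and 0 of them at 0 UMIs and Mmp12 at 0 in libraries 1 and 2. Sums of the 7 neutrophil genes were 4.89, 3.64, 103 and 72.9 CPM, with 3, 4, 0 and 0 at 0. The 6 border macrophage genes summed to 12.6, 13.8, 57.4 and 50.98 CPM and the 11 leptomeningeal genes to 3533, 4825, 8804 and 6503 CPM. Most of the leptomeningeal sum was Ptgds alone, at 3079, 4291, 7621 and 5578 CPM. The 10 astrocyte genes (3447, 3345, 3646 and 3757 CPM) and the 9 microglia genes (337, 344, 366 and 356 CPM) had ranges of the size seen for Timp2 and Cst3. Single genes of other lists ran the other way, and the sums of those lists are not given here. S100a5 of the olfactory sensory neuron list stood at 816, 642, 155 and 286 CPM in libraries 1 to 4. Cdhr1 of the mitral and tufted cell list stood at 775, 676, 348 and 319 CPM. Mitochondrial transcripts took 8.93%, 9.55%, 7.34% and 7.46% of the UMIs. In a spot, fewer cells of a type and less RNA per cell cannot be told apart.

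The same 4 genes were also found in a larger share of spots of libraries 3 and 4. To compare libraries of different depth, the UMIs of each spot were drawn down to 2000, and 233, 89, 42 and 20 spots with fewer were dropped. Serpina3n then had a UMI in 7.91%, 6.71%, 44.98% and 41.2% of spots in libraries 1 to 4 (15.9%, 15.8%, 74.8% and 77.5% without thinning). A2m was seen in 0.630%, 0.799%, 14.8% and 9.64% of thinned spots, Timp1 in 0.420%, 0.479%, 7.42% and 4.66%, and Wfdc17 in 0.560%, 0.319%, 6.70% and 5.96% (without thinning, 4.09%, 2.94%, 34.8% and 29.3% for A2m). Exact binomial intervals of libraries 1 and 2 overlapped for each of the 4 genes, and those of libraries 3 and 4 lay above them. Cst3 was seen in 98.2% to 99.7% of thinned spots, Timp2 in 34.9% to 38.0%, Serpine2 in 35.9% to 48.0% and Timp3 in 18.2% to 23.4%.

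Spots with UMIs of Serpina3n, Timp1, A2m and Wfdc17 together were absent from libraries 1 and 2, at 0 of 1662 and 0 of 715 spots, which allows shares of up to 0.181% and 0.420%. There were 102 in library 3 (7.87% of spots) and 58 in library 4 (6.15%). These spots were deeper than their libraries, with medians of 11430 and 12151.5 UMIs. Serpina3n reached 74 UMIs in 1 spot of library 3 and 60 in library 4, against highest values of 7 and 5 in libraries 1 and 2. In thinned spots its variance was 1.34, 1.28, 3.53 and 2.51 times its mean, where Poisson counting alone gives about 1. For Cst3 that ratio was 2.12, 2.11, 2.28 and 2.76, and for Timp2 and Serpine2 it was between 1.09 and 1.23.

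Spots were grouped into 15 regions of similar expression, clustered without the 8 genes and without the genes of the marker lists and named by their leading gene, which is a name and no cell type. The regions fell mostly within libraries 1 and 2 or within 3 and 4. With a minimum of 30 spots in a library, only the region led by Cacna1h was found in all 4 libraries, and its spots were shallow, with medians of 1813 to 5015 UMIs. A region's levels therefore describe its own libraries.

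**Figure D2:**
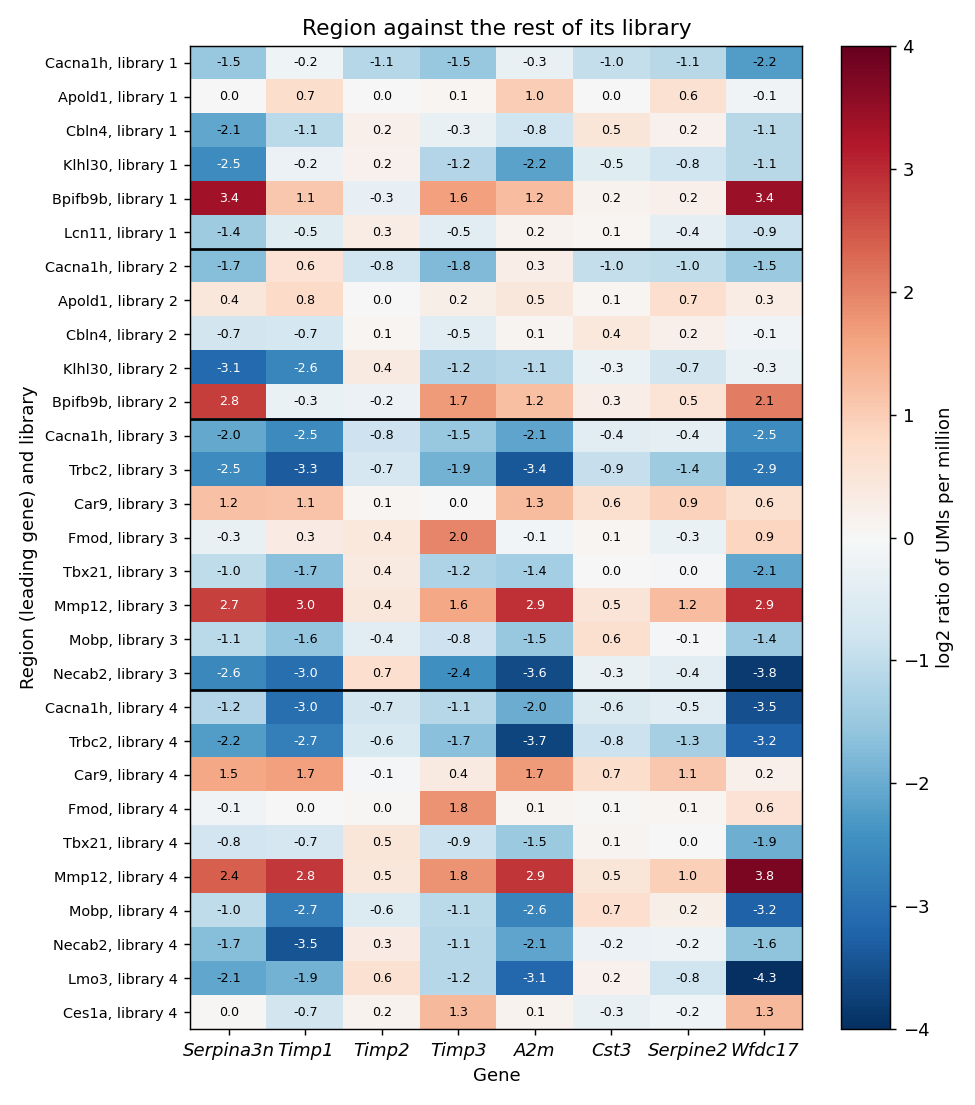
Log2 ratio of CPM in a region to the rest of the same library, for each gene and each region with at least 30 spots in that library; black lines separate the libraries. The Mmp12 row is above 2 for Serpina3n, Timp1, A2m and Wfdc17 in libraries 3 and 4, and the Bpifb9b row is the highest of Serpina3n in libraries 1 and 2.

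In libraries 3 and 4, Serpina3n, Timp1, A2m and Wfdc17 were highest in the region led by Mmp12, which held 126 spots (9.72%) of library 3 and 74 spots (7.85%) of library 4 and no spot of libraries 1 and 2. After Mmp12, a macrophage elastase, its leading genes were Lgals3 and Lyz2, both also genes of phagocytes. Serpina3n reached 2404 CPM there in library 3 and 1734 in library 4, which was 6.67-fold and 5.28-fold above the rest of the library. Every spot of the region had Serpina3n UMIs, with a median of 20.5 and a range of 1 to 74 in library 3, and a median of 18 and a range of 4 to 60 in library 4. The region took 9.96% and 8.55% of the UMIs of libraries 3 and 4 but 42.4% and 33.0% of those of Serpina3n.

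The other 3 of these genes were as concentrated. In libraries 3 and 4, Timp1 levels inside it were 234 and 117 CPM (8.05-fold and 7.12-fold above the rest), with 47.1% and 39.9% of its UMIs. A2m stood at 428 and 326 CPM (7.54-fold and 7.24-fold), with 45.5% and 40.4%. Wfdc17 stood at 171 and 232 CPM (7.68-fold and 13.7-fold), with 45.9% and 56.3%. For Wfdc17 alone of the 4, library 4 was above library 3 inside the region (1.35, 1.11 to 1.65).

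Among the other genes, Timp3 (366 and 372 CPM) was 2.93-fold and 3.45-fold above the rest in the Mmp12 region, and Serpine2 (536 and 444 CPM) was 2.35-fold and 1.94-fold above. Cst3 (5403 and 5636 CPM) was 1.44-fold and 1.39-fold above the rest, and Timp2 (333 and 316 CPM) 1.36-fold and 1.37-fold. Hence 6 of the 8 genes in library 3 and 5 of 8 in library 4 were over 2-fold higher there, beside 8.94% and 8.32% of all genes tested. The choice of the genes used their levels across spots, and the region was picked by these levels too, so nothing is read from these counts. Regions were ranked for each gene by the log2 ratio in the library where it was lowest. The Mmp12 region ranked first for the most genes, 4 of 8, namely Timp1, A2m, Serpine2 and Wfdc17. For Serpina3n the Bpifb9b region ranked first by that rule. The median log2 ratio of the 8 genes was 2.14 and 2.09, against -0.16 and -0.16 for the genes tested, and nothing is read from these medians either.

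Marker sums in the Mmp12 region are given beside these levels, and their part was not tested. Phagocyte genes summed to 6656 and 6843 CPM in libraries 3 and 4, with all 11 detected. Ensheathing glia genes summed to 7422 and 8650 CPM, with all 7 detected, and reactive glia genes to 6096 and 4767. Over all spots of libraries 3 and 4, ensheathing glia genes summed to 2252 and 2126 CPM, of which Apod alone was 1530 and 1388 CPM. Leptomeningeal genes summed to 11898 and 8618 CPM in the region, astrocyte genes to 4704 and 4397, microglia genes to 651 and 581, and neutrophil genes to 161 and 123, with 1 and 0 of the 7 at 0.

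The second region with high levels of these genes was led by Car9, a carbonic anhydrase, followed by Lcn2 and C3, with 181 spots of library 3 and 132 of library 4. There Serpina3n was measured at 1069 and 1011 CPM, A2m at 187 and 167, Timp1 at 92.8 and 58.9 and Wfdc17 at 53.6 and 39.7. Serpina3n in the Car9 region was 0.445 (0.420 to 0.471) and 0.583 (0.541 to 0.627) of its level in the Mmp12 region. For Wfdc17 the fraction was lower, 0.313 (0.243 to 0.399) and 0.171 (0.125 to 0.231). Serpine2 (434 and 446 CPM) and Cst3 (5657 and 6190 CPM) were about as high as in the Mmp12 region, at fractions of 0.810 and 1.005 for Serpine2 and 1.05 and 1.10 for Cst3. Reactive glia genes summed to 4190 and 3979 CPM in the Car9 region and phagocyte genes to 1834 and 1450 CPM.

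The proportion of Serpina3n to A2m was alike in the Mmp12 and Car9 regions within counting error, and that of Serpina3n to Wfdc17 was not. In the Mmp12 region there were 5.62 UMIs of Serpina3n per UMI of A2m in library 3 (5.12 to 6.17) and 5.32 in library 4 (4.66 to 6.08), and in the Car9 region 5.72 (5.10 to 6.45) and 6.05 (5.28 to 6.95). In the region led by Trbc2 the proportion was 11.02 (8.03 to 15.5) and 17.0 (10.95 to 27.8). Per UMI of Wfdc17 there were 14.02 (12.2 to 16.2) and 7.48 (6.42 to 8.75) UMIs of Serpina3n in the Mmp12 region of libraries 3 and 4. The values were 19.9 (16.3 to 24.7) and 25.4 (19.6 to 33.7) in the Car9 region, and 7.56 and 8.12 in the region led by Fmod.

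Timp3, Cst3 and Timp2 had their highest levels in other regions. Timp3 was highest in the region led by Fmod, with Ptgds and Slc13a4 next, at 445 CPM in library 3 and 384 in library 4. In libraries 1 and 2 it was highest in the region led by Bpifb9b, at 258 and 290 CPM. Cst3 was highest in the region led by Mobp in libraries 3 and 4 (5947 and 6569 CPM) and in that led by Cbln4 in libraries 1 and 2 (4809 and 4287 CPM), and its highest region was 2.25-fold to 2.47-fold above its lowest in each library. Timp2 was highest in a different region in each library, at 339, 312, 391 and 352 CPM, and lowest in the Cacna1h region in all 4. Serpine2 was highest in the region led by Apold1 in library 1 (434 CPM) and in the Bpifb9b region in library 2 (397 CPM).

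In libraries 1 and 2, Serpina3n was highest in the Bpifb9b region, at 172 CPM in library 1 and 154 in library 2. That region held 198 and 60 spots, and Gfy, Umodl1 and Stoml3, genes of nasal sensory tissue, followed Bpifb9b among its leading genes. Elsewhere in library 1 Serpina3n lay between 6.12 CPM in the region led by Klhl30 and 28.8 in the Apold1 region. The proportion of Serpina3n to A2m in the Bpifb9b region of library 1 was 15.1 (8.43 to 29.7), and in the Apold1 region it was 3.41 (2.31 to 5.16). Of the 29 UMIs of Wfdc17 in library 1, 14 came from the Bpifb9b region.

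Levels of the 4 wide-range genes stayed apart between libraries when the Mmp12 region was left out. Serpina3n then stood at 361 and 329 CPM in libraries 3 and 4, and library 3 exceeded library 1 by 12.4-fold (11.1 to 13.8). The ratio was 18.98 for Timp1 (9.52 to 44.3), 12.3 for A2m (8.22 to 19.4) and 11.7 for Wfdc17 (6.24 to 24.6). Outside that region 4 of the 8 genes were over 2-fold, beside 6.86% of all 9616 genes tested. With the Car9 region left out too, the ratios were 7.73, 11.03, 6.94 and 8.55 for Serpina3n, Timp1, A2m and Wfdc17. For Serpine2 the ratio widened to 1.79 (1.69 to 1.91), with library 1 the highest.

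**Figure D3:**
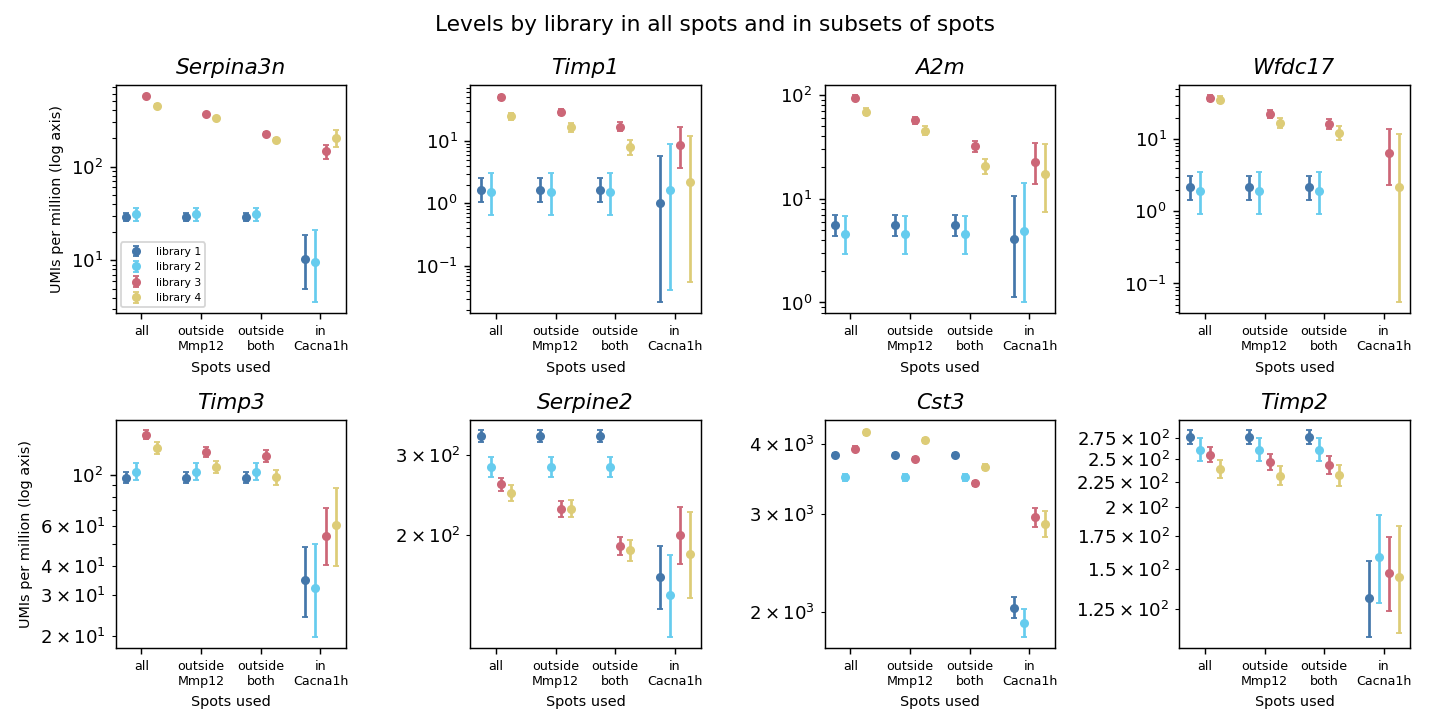
Level of each gene in CPM on a log axis, by library, over all spots, outside the Mmp12 region, outside both the Mmp12 and Car9 regions, and in the Cacna1h region, with exact Poisson 95% intervals; each panel has its own axis and a level of 0 is not drawn. The upper row keeps libraries 3 and 4 above libraries 1 and 2 in the first 3 sets of spots, and Serpine2 has library 1 highest in these.

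The Cacna1h region, present in all libraries, held 23.2%, 29.2%, 13.8% and 9.12% of the spots of libraries 1 to 4, and its depths differed between them as given above. Serpina3n had 10, 6, 136 and 94 UMIs there in libraries 1 to 4, or 10.3, 9.70, 145 and 203 CPM. The highest was 20.9-fold above the lowest (9.25 to 58.4). In library 4, the highest spot held 26 of the 94 UMIs and 43 of 86 spots held none, a spread that the interval does not cover. For A2m the 4, 3, 21 and 8 UMIs gave a ratio of 5.46 (1.84 to 21.9). Timp1 had 1, 1, 8 and 1 UMIs and Wfdc17 had 0, 0, 6 and 1, too few for a ratio. Of the 6 genes with at least 3 UMIs in each library, Serpina3n and A2m were over 2-fold, beside 19.9% of 10594 genes, a minimum set after values were seen. Cst3 ranged 1.55-fold (1.44 to 1.66), at 2036, 1909, 2954 and 2874 CPM in libraries 1 to 4.

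Across spots of a library, Serpina3n varied together with A2m, Cst3 and the other wide-range genes in libraries 3 and 4, and no pair did so beyond a rho of 0.2 in libraries 1 and 2. In spots thinned to 2000 UMIs, Spearman's rho of Serpina3n and A2m was 0.041, -0.024, 0.41 and 0.30 in libraries 1 to 4 (1429, 626, 1254 and 923 spots). That of Serpina3n and Cst3 was 0.064, 0.091, 0.37 and 0.27. In libraries 1 and 2, A2m had 9 and 5 thinned UMIs, so a rho there says little. Of 28 pairs, 10 had a rho over 0.2 in at least 1 library, a threshold set after the values were seen, and Timp2 was in none of them. The share over pairs of all genes was not computed, so nothing is read from this count. Spots share a library, a depth and neighbouring tissue, so these are descriptions without a p-value. Within single regions, the highest rho was 0.28, for Serpina3n and Cst3 in the Fmod region of library 3. The lowest were -0.38 for Timp2 and Cst3 in the region led by Tbx21 of library 4 and -0.31 for Serpina3n and Serpine2 in the Bpifb9b region of library 1.

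**Figure D4:**
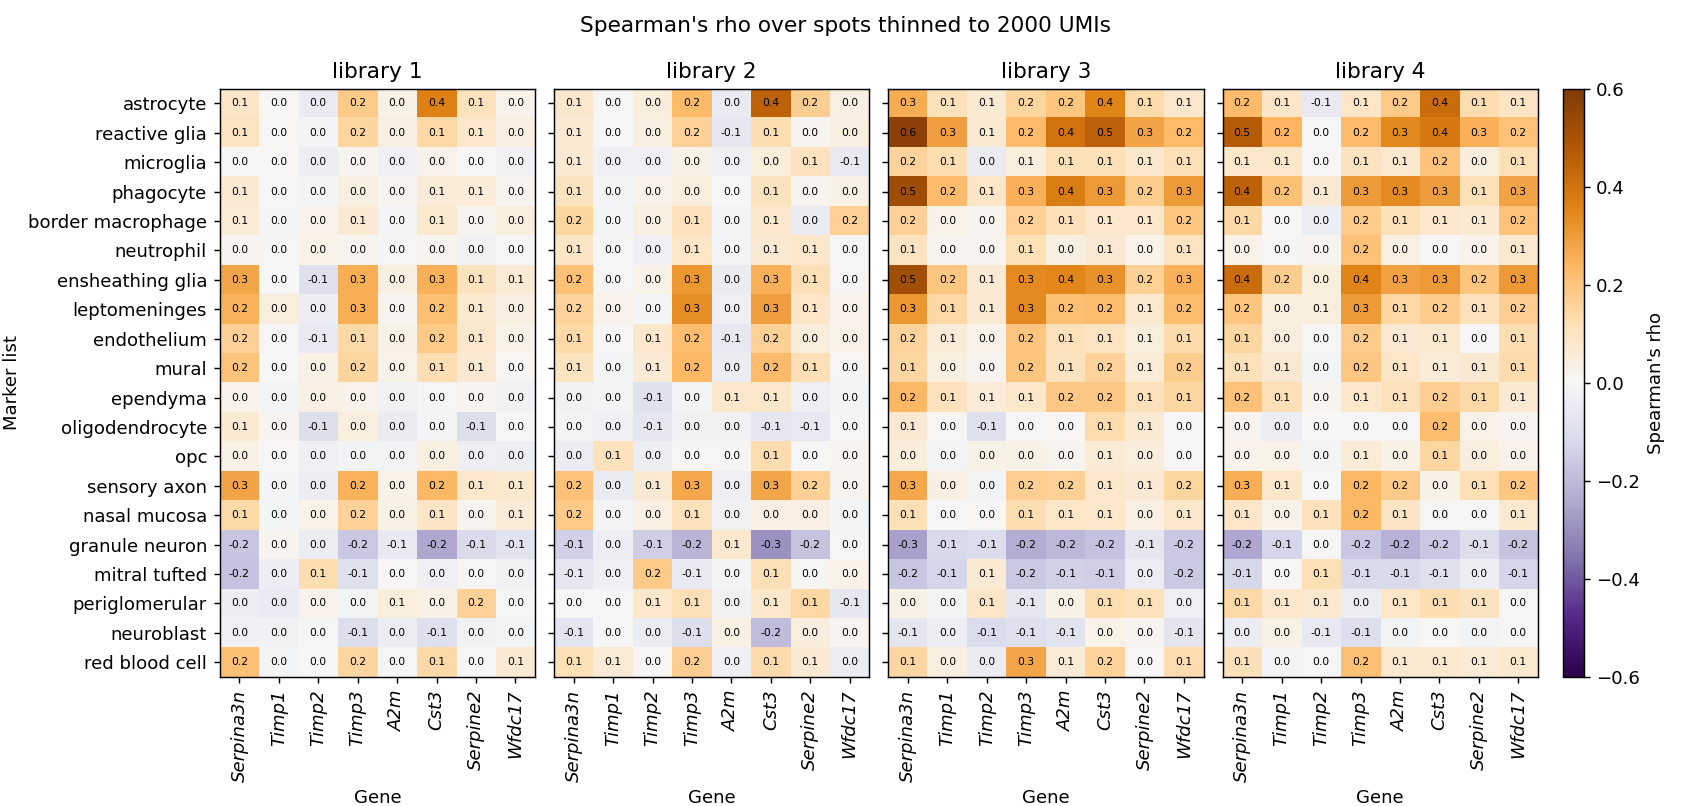
Spearman's rho between each gene and the summed UMIs of each marker list, over spots thinned to 2000 UMIs, in libraries 1 to 4. The reactive glia row is highest for Serpina3n in libraries 3 and 4, at 0.57 and 0.47, and the Timp2 column stays near 0 in both.

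The working name of this group, protease inhibitors of reactive glia, was held against the reactive glia list. The correlation with that list, as Spearman's rho, was 0.57 and 0.47 for Serpina3n in libraries 3 and 4, 0.45 and 0.39 for Cst3, 0.40 and 0.34 for A2m, 0.30 and 0.24 for Timp1, 0.28 and 0.25 for Serpine2, 0.23 and 0.23 for Timp3 and 0.23 and 0.21 for Wfdc17. For Timp2 it was 0.066 and -0.0067, and the name is not borne out for this gene. For Serpina3n and A2m, values with other lists were close. Serpina3n had 0.52 and 0.45 with the phagocyte list and 0.52 and 0.42 with the ensheathing glia list. A2m had 0.37 and 0.34 with the phagocyte list. Wfdc17 had a rho with the phagocyte list of 0.30 and 0.29, above its values with the reactive glia list. Timp3 had a rho of 0.34 and 0.30 with leptomeningeal genes and 0.34 and 0.35 with ensheathing glia genes. These too were above its values with the reactive glia list, so the name does not single out the closest list for Wfdc17 and Timp3. Library levels of Serpine2 were lower in libraries 3 and 4, where the reactive glia sum was higher. Cst3 had a rho of 0.36, 0.45, 0.35 and 0.42 with astrocyte genes in libraries 1 to 4. This was above its value with the reactive glia list in library 4 and below it in library 3. In library 4 the name thus does not single out the closest list for Cst3 either.

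The genes most like each of the 8 were those with the highest rho in the library where it was lowest, among libraries with at least 100 thinned UMIs. For A2m over 2 libraries they were Lcn2 (lowest rho 0.36), a siderophore-binding lipocalin, Apoe (0.36) and the filament gene Vim (0.34). Timp1, assessed in library 3 alone, had Lcn2 (0.32), the complement gene C3 (0.31) and Vim (0.27). Over 4 libraries, Cst3 was most like Apoe (0.43), Glul (0.27), which encodes glutamine synthetase, and Mt1 (0.25), and the same genes headed the list of Serpine2 at 0.14 or less. Timp3 had Apoe (0.29), Apod (0.25) and Ptgds (0.23). Serpina3n, over 3 libraries, was most like S100a5, Fabp7 and Apoe (0.28, 0.28 and 0.27), with Apoe at 0.61 in library 3. Timp2 had Cdhr1, Rab3b and Calb2 at 0.079 or less. No library had 100 thinned UMIs of Wfdc17.

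The proteases these inhibitors act on, and other inhibitors, were taken from lists of the pathway. Between the highest and lowest library, 12 of 22 metalloproteases with at least 100 UMIs were over 2-fold, as were 4 of 9 serine proteases, 5 of 10 cysteine proteases, 5 of 10 other serpins and 6 of 13 other inhibitors. In the list labelled clearance receptor, which also holds Cd63, Itgb1, Itga3, Kdr and Lrpap1, none of the 7 genes tested was over 2-fold. The share over all 13405 genes with at least 100 UMIs was 14.7%. Median ratios were 2.08, 1.89, 2.05, 2.28, 1.82 and 1.37 in that order.

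**Figure D5:**
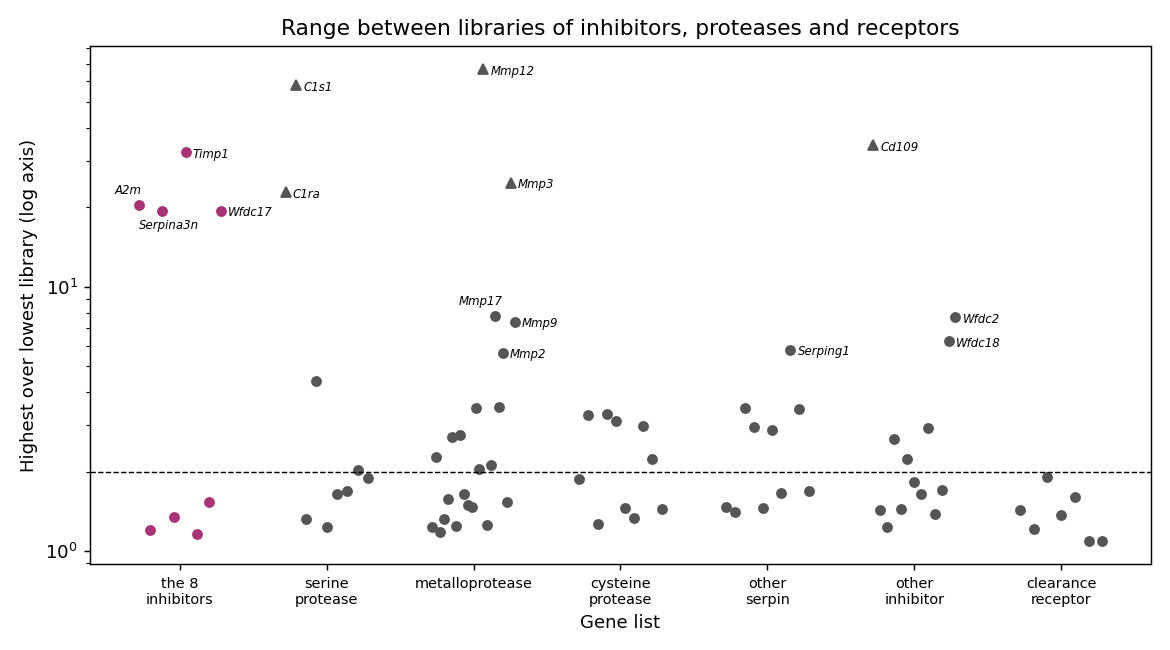
Highest library level over lowest on a log axis for the 8 inhibitors and for list genes with at least 100 UMIs; triangles are genes whose lowest library held under 3 UMIs and was set to 3, and the dashed line marks 2-fold. Of the 8 inhibitors, 4 lie above the line, and all 7 genes of the list labelled clearance receptor, not all of them such receptors, lie below it.

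Among targets of the TIMPs, Mmp12 had 0 UMIs in libraries 1 and 2 and stood at 11.6 and 14.999 CPM in libraries 3 and 4, at least 66.5-fold higher in library 4 than the 3-UMI limit of library 1. Mmp3, or stromelysin-1, had 0 UMIs in libraries 1 and 2 and 5.58 and 4.72 CPM in libraries 3 and 4, at least 24.8-fold higher by the same limit. Mmp17, a membrane-bound member, was measured at 10.7, 11.9, 73.2 and 83.5 CPM, and Mmp2, or gelatinase A, at 2.25, 2.49, 12.7 and 10.6. Mmp9, or gelatinase B, lay at 1.65, 0.574, 4.23 and 3.25 CPM. Adam10 and Adam15, with the most UMIs, differed by 1.24-fold and 1.18-fold. In the Mmp12 region Mmp3 stood at 36.9 and 39.3 CPM and Mmp2 at 34.4 and 34.3. Mmp17 stood there at 96.9 and 92.0 CPM, below its 152 and 157 CPM in the Trbc2 region of libraries 3 and 4. In library 4 it stood at 154 CPM in the region led by Lmo3. Neither the Trbc2 nor the Lmo3 region held a spot of libraries 1 and 2.

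Targets of serpins and cystatins were measured too. C1s1 and C1ra, which encode the complement proteases C1s and C1r, were both at 13.1 and 11.1 CPM in libraries 3 and 4, with 1 and 0 UMIs of C1s1 and 0.676 and 0.191 CPM of C1ra in libraries 1 and 2. Klk6, a kallikrein of myelinating cells, stood at 2.63, 3.83, 11.6 and 6.92 CPM, Prss23 at 107, 95.5, 52.7 and 53.9, Prss56 at 14.7, 19.7, 10.5 and 11.4, and Htra1, with the most UMIs, at 237, 213, 278 and 281. Ctsh, Ctsc, Ctsk, Ctss and Ctsz, lysosomal cathepsins, had ratios of 3.31, 3.28, 3.10, 2.97 and 2.24. Ctsb, the cathepsin with the most UMIs, was measured at 613, 568, 1064 and 918 CPM and Ctsl at 203, 195, 283 and 269. In the Mmp12 region Ctsb reached 2797 and 2490 CPM, and Ctss 668 and 509.

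Other inhibitors showed both orders of libraries. Serping1, the C1 inhibitor, was measured at 18.6, 24.3, 108 and 89.9 CPM, and at 405 and 423 CPM in the Mmp12 region. Serpinh1, a collagen chaperone, had a ratio of 3.45, and Serpinb6b, Serpinb8 and Serpind1 had ratios of 3.47, 2.94 and 2.87. Serpini1, or neuroserpin, ran the other way at 391, 400, 267 and 238 CPM. Cd109, a relative of A2m, had 0.0752, 0.574, 7.74 and 5.98 CPM. Wfdc2 and Wfdc18, WAP-domain relatives of Wfdc17, stood at 4.66, 2.11, 12.9 and 16.2 CPM and at 38.7, 9.38, 6.22 and 11.1 CPM, so that Wfdc18 was highest in library 1. Tfpi and Itih2 had ratios of 2.92 and 2.67. Itih5 stood at 25.9, 29.7, 57.6 and 55.9 CPM. Cstb, a cystatin of the cytosol, had the most UMIs of these inhibitors beyond serpins and stood at 92.6, 90.2, 111 and 105 CPM, a ratio of 1.23.

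The clearance receptor Lrp1, which takes up A2m and serpin complexes, was measured at 159, 166, 255 and 245 CPM, a ratio of 1.60 (1.52 to 1.69). Cd63, a partner of Timp1 at the cell surface, stood at 175, 172, 247 and 216 CPM. Ratios were 1.91 for Itgb1, 1.37 for Kdr, 1.21 for Itga3, 1.09 for Lrp8 and 1.09 for Lrpap1.

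Near-identical copies and overlapping genes limit a few of these counts. Serpina3n lies in a cluster of similar genes, and the sources used here do not say how reads shared between copies were counted. Of its paralogs in the matrix, Serpina3g had at most 1.91 CPM, Serpina3i at most 1.15, and Serpina3a, Serpina3j and Serpina3k had no UMI. Timp1 lies inside Syn1 and Timp3 inside Syn3 on the opposite strand, in the annotation of GRCm38. Timp2 overlaps Cep295nl on the same strand, which had 1 UMI in all. Syn1 ranged from 443 to 496 CPM (1.12-fold) and its Mmp12 region levels, where Timp1 was highest, were 171 and 144 CPM. Syn3 stood at 1.57 to 2.71 CPM.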

How the data were processed

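Visium libraries of the olfactory bulb of 1 control and 1 mutant mouse were deposited as 1 pooled matrix of whole-number UMI counts per gene and spot, which per the file headers the authors made with Space Ranger 1.3.1. Per the submitters' processing notes the genome build was GRCm39. Annotation, filters on reads and any scaling for depth are not stated in the sources used here. The 8 genes, the gene lists and the rule for named genes were chosen with earlier results of these data known. Named genes beside the 8 are the 5 with the widest range between libraries and the 2 with the most UMIs of each pathway list, the 3 most alike genes of each member, the leading genes of regions, paralogs, and Syn1 and Syn3.

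Spots were assigned to libraries by barcode number and kept with at least 500 UMIs, which set aside 97 spots with 0.0680% of the UMIs. CPM came from UMIs summed over spots. For regions, counts were scaled to 10000 per spot and log1p-transformed, 2000 variable genes without members, list, mitochondrial, ribosomal protein and haemoglobin genes were z-scored, and 30 principal components, 15 neighbours and Leiden resolution 0.8 were used (Python 3.11.15, leidenalg 0.10.2, scipy 1.17.1). Of the genes that reached 200 UMIs in a region, the one with the highest fold against other spots gave it its name, or the next such gene where another region already had that name. Log2 ratios of a region to the rest used a prior count of 0.5. Correlations used 1 seeded thinning to 2000 UMIs. Several choices followed a look at values: the rho threshold of 0.2, the motifs and the CG count, the minimum of 20 UMIs for all genes in the Cacna1h region, leaving out the Car9 region, the minimums for pairs of genes within a region (60 spots and 50 UMIs), and the proteases followed by region. Sequences are from RefSeq, GRCm38.p6, another build than the one the processing notes name. Those notes are the only source for the build of the deposited matrix. The 2-fold call between libraries, the ratio interval and the clustering were tested on simulated data, and the other calculations were not.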

Additional observations from a re-analysis of the deposited data

How the results depend on the processing

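Serpina3n, Timp1, A2m and Wfdc17 remained the genes over 2-fold apart, 4 of 8, under every other spot minimum, scaling, region weighting, 3-fold threshold and omitted library or region tried (leaving out the Car9 region was added after seeing the data), and 5 of 8 passed at 1.5-fold. Over these settings the highest library exceeded the lowest by a ratio of 7.73 to 19.4 for Serpina3n, 11.03 to 61.3 for Timp1, 6.94 to 20.7 for A2m and 8.55 to 19.9 for Wfdc17, the lowest values being those without the Mmp12 and Car9 regions. It ran from 1.25 to 1.60 for Timp3, 1.15 to 1.79 for Serpine2, 1.10 to 1.31 for Cst3 and 1.08 to 1.196 for Timp2. The count of genes over 2-fold in both libraries of the top region was 5, and 5 or 6 under other settings. No share of all genes was computed for that count. Of the counts between libraries under other settings, only the one without the Mmp12 region has a share of all genes, 6.86%. Nothing is read from any of these counts. The count of gene pairs with a rho over 0.2 in any library, 10 at 2000 UMIs, was 2 at 1000 UMIs and 18 at 4000 UMIs, and 8 with another random seed; the cause was not tested. Of the pathway genes, 32 of 71 were over 2-fold at a minimum of 100 UMIs and 12 of 43 at a minimum of 500, where fewer genes are tested. Over all genes the share was 14.7% at 100 UMIs. It was 7.86% at 500 UMIs, where 3 UMIs in every library were also required. With genes centred within each library, an alternative added after seeing the data, 2 of 15 regions were shared by all libraries, and Serpina3n was 12.03-fold apart in 1 of them and 3.01-fold in the other. Of the single values, 175 stayed within the limits set for them (the interval of a ratio, or a fixed step in a log2 ratio or a rho) and 34 did not. Correlations that were undefined because a thinned gene had no UMI were left out. No paired analysis was possible because the library numbers match no sample label. In libraries 1 and 2, Timp1, A2m and Wfdc17 rest on 8 to 74 UMIs each, which widens the intervals of their ratios.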
